A study of Mus musculus with 2 samples.

Results

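The 8 tuft cell genes described here are Dclk1, Trpm5, Pou2f3, Sh2d6, Avil, Rgs13, Lrmp and Ltc4s. They were chosen as a list of names and not by a rule on their values, but with earlier results of these data known. All 8 were found among the 15182 genes that the single-cell RNA-seq libraries of mouse intestinal enteroids had in common. They were followed by their summed unique molecular identifiers (UMIs, the counted RNA molecules) per 10000 UMIs of a library, by the number of them detected in each cell, and by how often they were found together in a cell. Their UMIs were few and lay largely in few cells. A cell was said to hold 3 or more tuft genes where at least 3 of the 8 had a UMI, which was so in 9 of 2563 control cells and in 11 of 1811 Taf4 IEC cells.

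The enteroids were grown from ileal crypts of mice aged 4 months of the C57Bl6/129sv strain, and their live cells were sorted and captured with the 3′ gene expression kit of 10x Genomics, with 1 library per condition. The Taf4 IEC library is labelled as knockout enteroids given 1 µM 4-hydroxytamoxifen (4-OHT) for 3 days. Taf4 IEC stands for a floxed Taf4 gene, whose product is part of TFIID, a complex that starts transcription by RNA polymerase II, combined with VilCreERT2, a tamoxifen-dependent Cre recombinase under the villin promoter that is active in the intestinal epithelium. The control library is labelled as wild-type enteroids given ethanol, whereas the text of the study describes the control as Taf4 lox/lox enteroids given 4-OHT, so that the genotype and the drug of the control cannot be settled here. How many mice gave the enteroids of a library was not given in the sources used here.

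With 1 library per condition there was no replicate and no test between conditions. The 95% intervals below (exact Poisson for levels, exact conditional binomial for ratios, Clopper-Pearson for shares of cells, Newcombe for their differences) cover counting error only. They treat UMIs as independent, although several UMIs of a gene often came from 1 cell, so they are too narrow for a difference between cultures. The control library held 39947009 UMIs with a median of 16749 per cell, and the Taf4 IEC library held 24990128 with a median of 2254. Cells with at least 2000 UMIs numbered 2119 (82.7%) and 921 (50.9%), with median depths of 18715 and 29103 UMIs. The libraries had 2 cell barcodes in common. Taf4 itself had 278 control UMIs and 236 Taf4 IEC UMIs, a level 1.36-fold higher in the latter (log2 ratio 0.44, interval 0.18 to 0.70). Counts from the 3′ end do not tell a recombined transcript from an intact one, so they do not check the label.

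Tuft cells are rare chemosensory cells of the gut epithelium. They sense luminal compounds through a pathway akin to that of taste cells, in which G proteins, phospholipase C and inositol trisphosphate receptors open the cation channel Trpm5, and they answer parasites by releasing interleukin 25 and leukotrienes. The POU-domain transcription factor Pou2f3 is needed for their formation in the mouse.

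Of the 8 genes, Pou2f3 (chromosome 9, 43123927 to 43205755 in the mouse build GRCm38.p6, which is mm10) encodes that factor. Trpm5 (chromosome 7, 143071529 to 143094642) encodes the channel, and Rgs13 (chromosome 1, 144137386 to 144177372) a regulator of G protein signalling. Ltc4s (chromosome 11, 50236461 to 50238532) encodes leukotriene C4 synthase. Avil (chromosome 10, 127000065 to 127020994) encodes advillin, an actin-binding protein related to villin. Dclk1 (chromosome 3, 55242303 to 55539068) encodes a microtubule-associated kinase that is widely used as a tuft cell marker. Sh2d6 (chromosome 6, 72513641 to 72534206) encodes a protein with an SH2 domain, and Lrmp (chromosome 6, 145111715 to 145174929) a membrane protein of the endoplasmic reticulum. Lrmp overlaps Casc1 and Dclk1 overlaps non-coding genes in the annotation, so that reads of these could have been shared.

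Pou2f3 belongs to the factors that bind the octamer ATGCAAAT, and the promoters of the genes were searched for these letters on both strands. The RefSeq windows, from 250 bases before to 50 after a transcript start in GRCm38.p6, held 6 of the 8 genes in 7 windows, without Pou2f3 and Lrmp. The octamer stood in 0 of these 7, and in 570 of the 32851 windows of all genes (1.74%). With any base at the fifth place (ATGCNAAT), which includes the octamer, it stood in 0 of 7 and in 1035 (3.15%). Among 48 genes of wider tuft cell lists with a window it was found in 5 of 60 windows, those of Hpgds, Il4ra, Itpr3, Kctd12 and Sucnr1. Trpm5 and Avil are shown as members without a match. Hpgds, Kctd12 and 1810046K07Rik are shown because they carried the octamer, in capitals in either orientation, and because their UMIs lay with those of the 8 genes, as described further on.
Trpm5 (chr7:143094593-143094892, minus strand): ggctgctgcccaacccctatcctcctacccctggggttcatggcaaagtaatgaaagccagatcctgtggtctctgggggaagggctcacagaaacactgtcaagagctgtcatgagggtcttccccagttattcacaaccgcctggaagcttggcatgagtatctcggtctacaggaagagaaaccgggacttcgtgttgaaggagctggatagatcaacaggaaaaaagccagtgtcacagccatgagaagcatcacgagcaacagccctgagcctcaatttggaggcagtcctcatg
Avil (chr10:127000459-127000758, plus strand): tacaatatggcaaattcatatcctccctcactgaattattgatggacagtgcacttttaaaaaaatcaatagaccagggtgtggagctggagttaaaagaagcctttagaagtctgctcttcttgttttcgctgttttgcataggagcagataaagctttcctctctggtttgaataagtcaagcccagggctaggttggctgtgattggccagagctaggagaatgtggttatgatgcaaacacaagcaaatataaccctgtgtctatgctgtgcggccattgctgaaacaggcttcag
Hpgds (chr6:65144681-65144980, minus strand): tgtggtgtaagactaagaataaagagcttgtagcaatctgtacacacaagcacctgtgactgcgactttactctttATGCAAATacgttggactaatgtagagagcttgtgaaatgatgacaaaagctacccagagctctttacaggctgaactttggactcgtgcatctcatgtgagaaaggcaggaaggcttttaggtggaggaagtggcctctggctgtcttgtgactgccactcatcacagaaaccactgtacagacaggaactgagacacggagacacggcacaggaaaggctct
Kctd12 (chr14:102982588-102982887, minus strand): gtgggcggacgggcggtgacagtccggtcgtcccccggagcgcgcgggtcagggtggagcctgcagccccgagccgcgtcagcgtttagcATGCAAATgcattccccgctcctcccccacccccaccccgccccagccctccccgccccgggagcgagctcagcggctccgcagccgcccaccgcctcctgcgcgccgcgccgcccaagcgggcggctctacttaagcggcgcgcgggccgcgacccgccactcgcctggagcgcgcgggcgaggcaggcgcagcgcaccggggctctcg
1810046K07Rik (chr9:51328869-51329168, minus strand): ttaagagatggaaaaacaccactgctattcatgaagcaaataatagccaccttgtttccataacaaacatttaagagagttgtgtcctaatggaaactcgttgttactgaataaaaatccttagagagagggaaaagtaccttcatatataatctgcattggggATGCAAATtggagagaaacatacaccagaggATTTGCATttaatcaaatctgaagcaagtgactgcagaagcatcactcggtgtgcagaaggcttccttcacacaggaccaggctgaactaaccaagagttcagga
The octamer began at position -174 from the start in Hpgds and at -160 in Kctd12. In 1810046K07Rik it stood at -86 as written and at -55 in its reverse complement. These matches are descriptions of the sequence and do not show binding.

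Summed over the 8 genes, the Taf4 IEC library held 946 UMIs and the control 429, in spite of its smaller total. The summed level was 0.379 per 10000 UMIs (0.355 to 0.403) against 0.107 (0.0975 to 0.118), which is 3.52-fold higher in the Taf4 IEC library (log2 ratio 1.82, 1.65 to 1.99). There, 6 of the 8 genes were at least 2-fold higher and 0 were at least 2-fold lower, where 10.5% of the 13155 genes whose UMIs in the 2 libraries summed to 20 or more were 2-fold or more higher and 5.32% 2-fold or more lower. The median log2 ratio of the 8 was 2.65 against 0.18 over these genes. A cause of the 3.52-fold ratio cannot be told apart from other differences between 2 single cultures.

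Dclk1 had 6 UMIs in 2 control cells and 79 UMIs in 10 Taf4 IEC cells, with the highest ratio of the 8 (log2 ratio 4.40, 3.21 to 5.88). Trpm5 had 23 UMIs in 13 cells and 65 in 14 (2.18, 1.47 to 2.93, and 2.79 with each cell thinned to 2000 UMIs). Avil had 20 UMIs in 9 cells and 111 in 12 (3.15, 2.45 to 3.91). With each cell given equal weight the log2 ratio of Avil was 2.22, below this interval, and with thinned cells it was 3.79. As a share of the cells of each library, positive cells were 0.507% of control and 0.773% of Taf4 IEC cells for Trpm5. For Avil they were 0.351% and 0.663%, and for Dclk1 0.0780% and 0.552%. The intervals of these shares overlapped between the libraries for each of these genes.

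Lrmp had 47 UMIs in 10 control cells and 256 UMIs in 16 Taf4 IEC cells (log2 ratio 3.12, 2.67 to 3.60, and 2.47 in thinned cells). Rgs13 had 108 UMIs in 9 cells and 192 in 25 (1.51, 1.16 to 1.86), but 2.17 with equal weight and 2.13 in thinned cells. Sh2d6 had 3 UMIs in 3 cells and 17 in 6 (3.18, 1.39 to 5.59), the fewest of the 8 in both libraries. Sh2d6 is thus the least well measured, and its log2 ratio was 0.20 in thinned cells, 3.90 with equal weight and 4.77 without the 3 cells, described below, that held many markers of other cells.

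The other two genes, the transcription factor and the leukotriene synthase, had the smallest ratios. Pou2f3 had 61 UMIs in 40 control cells and 45 UMIs in 21 Taf4 IEC cells, a log2 ratio of 0.24 whose interval held 0 (-0.35 to 0.82). Ltc4s had 161 UMIs in 101 cells and 181 in 51 (0.85, 0.53 to 1.16). These were also the genes with the most positive control cells, and most of those cells held no other member, as described below.

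Most cells held none of the 8 genes. In the control, 2417 of 2563 cells had none, 133 had 1, 4 had 2, and 9 cells (0.351%, 0.161 to 0.666) had between 3 and 7. Among Taf4 IEC cells, 1717 of 1811 had none, 76 had 1, 7 had 2, and 11 cells (0.607%, 0.304 to 1.08) had between 3 and 8. All 8 genes were found together in 3 Taf4 IEC cells and in 0 control cells, which allows a control share of up to 0.117% when the 0 is taken as 3 cells and of up to 0.144% by the Clopper-Pearson interval. The distribution had a gap in the Taf4 IEC library, where no cell held 4 or 5.

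**Figure D1:**
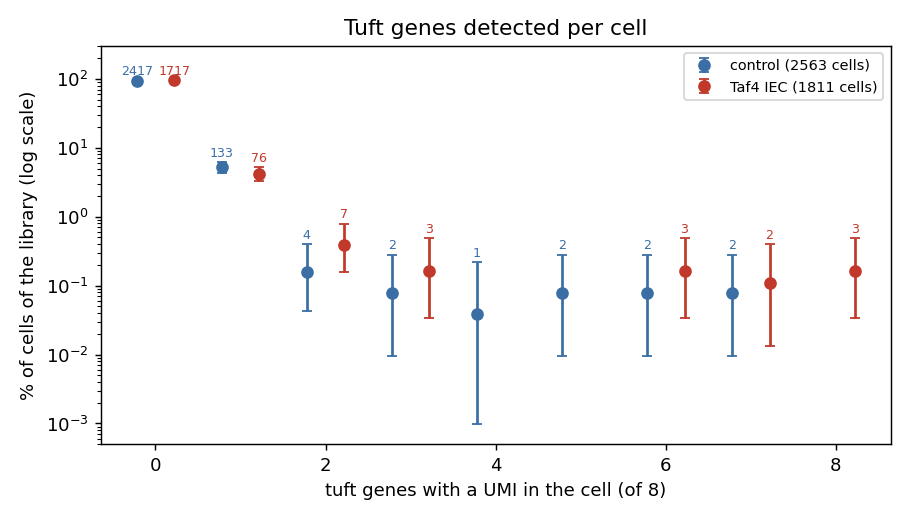
Share of cells by the number of the 8 tuft genes with a UMI, on a log scale, for all cells of the control (blue) and Taf4 IEC (red) libraries. Points are shares with exact 95% intervals and the small numbers are counts of cells, from 2417 and 1717 cells with none to 3 Taf4 IEC cells with all 8.

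The share of such cells did not differ beyond counting error in all cells, since the difference was 0.256 percentage points (-0.181 to 0.770). Among cells with at least 2000 UMIs there were 9 of 2119 for the control (0.425%) and 8 of 921 for Taf4 IEC (0.869%), which is 0.444 points apart (-0.178 to 1.31). Because detection depends on depth, each of these cells was also thinned to 2000 UMIs, which left out the 17.3% and 49.1% of shallower cells. Then 3 control cells (0.142%) and 6 Taf4 IEC cells (0.651%) held 3 or more, a difference of 0.510 points (0.016 to 1.28). These counts come from a single random draw of UMIs, and the interval, whose lower end is near 0, does not cover the spread between draws. Cells with 6 or more of the genes, a count chosen after the values were seen, numbered 4 and 8 of those with at least 2000 UMIs, a difference of 0.680 points (0.106 to 1.53). Whether the share of tuft gene cells differed thus depended on the setting, and every interval here rests on at most 11 cells of a library.

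The summed level can be split between the cells with 3 or more tuft genes and the rest. Among cells with at least 2000 UMIs, the 9 control cells held 257 UMIs, which is 60.5% of those of the 8 genes, and the 8 Taf4 IEC cells held 817, which is 89.5%. Per 10000 UMIs, the level was 14.3 (12.6 to 16.1) in those control cells and 39.7 (37.0 to 42.5) in those Taf4 IEC cells, a log2 ratio of 1.48 (1.27 to 1.68). In the rest it was 0.0428 and 0.0400, a log2 ratio of -0.10 whose interval held 0 (-0.47 to 0.27). The ratio of the summed level between libraries therefore lay in the few cells that held several of the genes. Outside, single genes went different ways. Among cells without 3 or more of the other 7 genes, Pou2f3 was at 0.0132 per 10000 in the control and 0.0050 in Taf4 IEC. Ltc4s was at 0.0303 and 0.0192, but Rgs13 at 0.00102 and 0.00333 and Avil at 0.000764 and 0.00250. Both the chosen cells and the rest were set by these genes, so both levels are a description.

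The 17 cells differed widely among themselves. In the control, the summed level per cell ran from 4.76 per 10000 UMIs, with a median of 5.91, to 49.8. In the Taf4 IEC library it ran from 7.94, with a median of 52.1, to 89.7, so the cells of both libraries overlapped. The median number of the 8 genes detected was 5 (3 to 7) per control cell and 7 (6 to 8) per Taf4 IEC cell, at median depths of 17614 and 22668 UMIs. Thinned to 5000 UMIs, it was 3 (0 to 6) and 4 (2 to 8).

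The highest control cell, with 12451 UMIs in all, held 30 UMIs of Rgs13, 13 of Lrmp, 7 of Ltc4s, 4 each of Dclk1 and Avil, 3 of Trpm5 and 1 of Sh2d6, and none of Pou2f3. A further control cell, of 14728 UMIs, held 24 of Rgs13, 18 of Lrmp, 10 of Ltc4s, 5 of Avil, 3 of Trpm5, 2 of Dclk1 and 1 of Pou2f3, and none of Sh2d6. These 2 cells held all 6 control UMIs of Dclk1. At the other end, control cells of 14709 and 32408 UMIs held only Trpm5, Pou2f3 and Ltc4s, with 7 and 18 UMIs in total.

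The highest Taf4 IEC cell, with 21404 UMIs in all, held 65 UMIs of Rgs13, 57 of Lrmp, 21 of Ltc4s, 18 of Dclk1, 14 of Avil, 11 of Trpm5, 4 of Pou2f3 and 2 of Sh2d6. The next, of 20170 UMIs, also had all 8, with 57 of Lrmp, 33 of Rgs13, 26 of Ltc4s and 19 of Dclk1. The third cell with all 8 was shallow, with 7707 UMIs, and had between 2 and 8 of each. In contrast, 3 deeper Taf4 IEC cells, of 20040, 27792 and 37070 UMIs, held 6 of the genes and lacked both Dclk1 and Sh2d6. The remaining 3 of the 11 Taf4 IEC cells had 867, 1273 and 1635 UMIs and 3 genes each, and were not part of the comparisons among cells with at least 2000 UMIs.

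**Figure D2:**
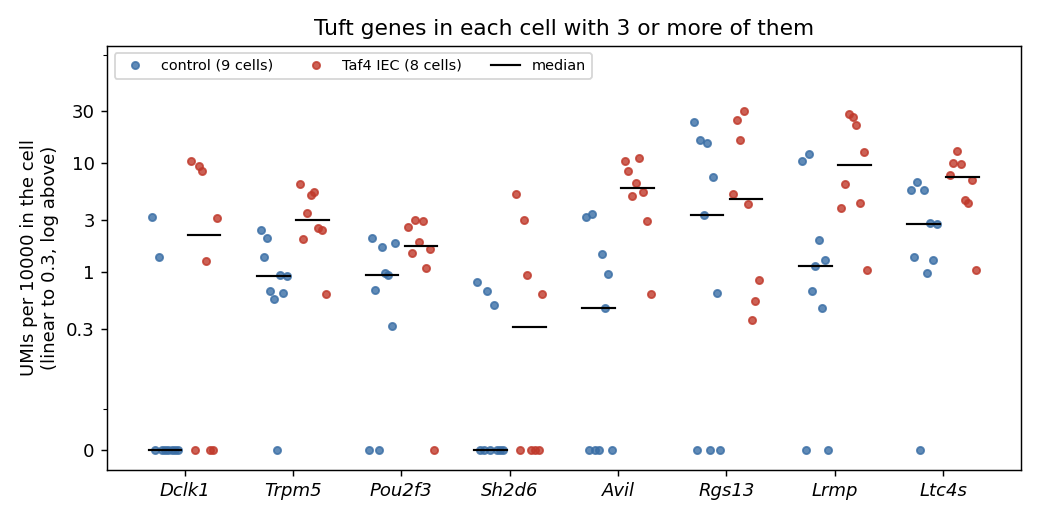
UMIs per 10000 of each tuft gene in each of the 9 control (blue) and 8 Taf4 IEC (red) cells with 3 or more of them and at least 2000 UMIs, with the median as a line, on a scale that is linear to 0.3 and logarithmic above. Dclk1 and Sh2d6 lay at 0 in most control cells, and for every gene the cells of both libraries overlapped.

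To see whether the genes were found together without using the gene in question, each was described in the cells that held at least 3 of the other 7. In the Taf4 IEC library, Trpm5, Avil, Rgs13, Lrmp and Ltc4s were each found in 8 of 8 such cells, Pou2f3 in 7 of 8, Dclk1 in 5 of 8 and Sh2d6 in 4 of 8. In the remaining 913 cells the shares ran from 0.110% for Sh2d6 to 3.83% for Ltc4s. In the control, Trpm5 and Ltc4s were each found in 6 of 7, Pou2f3 in 5 of 7, Lrmp in 7 of 9, Rgs13 in 6 of 9, Avil in 5 of 9, Sh2d6 in 3 of 9 and Dclk1 in 2 of 9. In the remaining control cells the shares ran from 0.142% for Avil, Rgs13 and Lrmp to 4.36% for Ltc4s, and Dclk1 and Sh2d6 were found in 0 of 2110 cells, which allows a share of up to 0.142% when taken as 3 cells and of up to 0.175% by the Clopper-Pearson interval. The cells with 3 or more tuft genes were no deeper than the rest, with medians of 17614 against 18716.5 control UMIs and 22668 against 29275 Taf4 IEC UMIs.

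**Figure D3:**
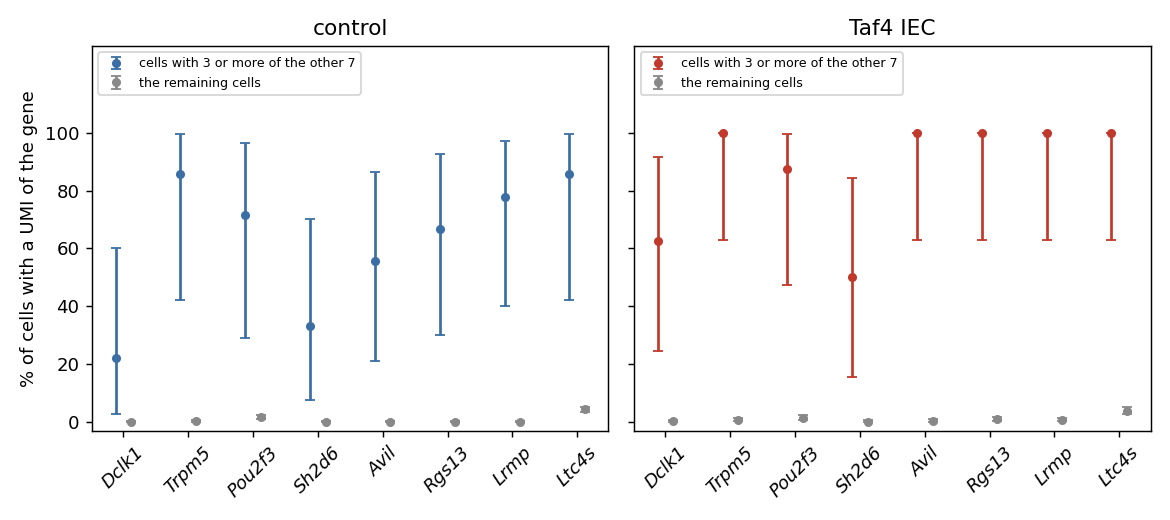
Percent of cells with a UMI of each tuft gene among cells with 3 or more of the other 7 (coloured) and among the remaining cells (grey), for cells with at least 2000 UMIs, with exact 95% intervals. The coloured points lay between 22.2% and 100% and the grey ones at or below 4.36%.

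By level, Rgs13 was 5669-fold and Lrmp 2344-fold higher in the control cells with 3 or more of the other genes than in the rest, with intervals of 2149 to 21196 and 852 to 8991. Trpm5 was 322-fold higher (130 to 807). Dclk1 was 436-fold higher with 0 UMIs in the rest counted as 3, and its exact interval began at 257. Pou2f3 and Ltc4s had the smallest ratios, 51.2 (22.2 to 105) and 96.9 (65.7 to 140). The same 2 genes had the smallest ratios in the Taf4 IEC library, with 301-fold (150 to 644) for Pou2f3 and 322-fold (228 to 462) for Ltc4s, against 5784-fold (2446 to 17971) for Lrmp at the upper end. These bounds and ratios rest on few UMIs outside the cells.

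All 28 pairs of the genes shared at least 1 cell in both libraries. Given 1 gene of a pair, the other was found in a median of 46.2% of control cells and 56.7% of Taf4 IEC cells with at least 2000 UMIs. Without it, the medians were 0.241% and 0.617%. The share was higher with the first gene in all 56 ordered pairs of each library. These are the 28 pairs taken in both orders, which always give the same sign. For genes this rare a shared cell largely sets that sign, so this adds little to the count of pairs with a shared cell. Pairs of other rare genes were not set beside these.

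Outside these cells the 8 genes behaved in different ways. Of the control UMIs, 100% of Dclk1 and Sh2d6, 96.3% of Rgs13, 91.5% of Lrmp, 80.0% of Avil and 73.9% of Trpm5 lay in the cells with 3 or more tuft genes, but only 31.1% of Ltc4s and 29.5% of Pou2f3. Ltc4s was the only one of the 8 in 90 of its 101 control cells (89.1%), and Pou2f3 in 30 of its 40 (75%). In the Taf4 IEC library the shares of UMIs ran from 71.1% for Pou2f3 to 97.3% for Lrmp, and Ltc4s and Pou2f3 were alone in 37 of 51 and 11 of 21 cells. The 4 control cells with exactly 2 of the genes held Trpm5 with Ltc4s, Trpm5 with Pou2f3, and, in the other 2, Pou2f3 with Ltc4s.

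Single cells outside stood apart. A control cell of 34749 UMIs held 11 UMIs of Ltc4s and no other member. A Taf4 IEC cell of 16077 UMIs held 12 UMIs of Dclk1 and no other member, and 943 UMIs of 8 enteroendocrine markers (Chga, Chgb, Neurod1, Neurog3, Tph1, Tac1, Cck and Sct). These 12 UMIs were most of the 16 of Dclk1 outside the cells with 3 or more tuft genes.

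Cells with fewer than 3 tuft genes were also grouped by 5 lists of 8 markers each, for stem cells, enterocytes, Paneth cells, goblet cells and enteroendocrine cells, where a cell thinned to 2000 UMIs had to hold 3 or more genes of a list and could fall into more than 1 class. The classes left out every cell with 3 or more tuft genes, also those with markers of another list. A low summed level of the tuft genes in every class was therefore in part set by this choice. In the control the summed level ran from 0.0251 per 10000 UMIs in 108 cells with Paneth markers to 0.0447 in 669 cells with stem markers. It was 0.0481 in 870 cells with none of the lists. In the Taf4 IEC library it ran from 0.0202 in 217 cells with goblet markers to 0.0932 in 90 cells with enteroendocrine markers, the latter through the Dclk1 cell named above. The intervals of the lowest and highest class overlapped for the control (0.00685 to 0.0644 and 0.0341 to 0.0576) but not for Taf4 IEC (0.00922 to 0.0383 and 0.0510 to 0.156).

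By gene, Pou2f3 had 18 UMIs in 16 of the 669 control stem-marker cells (2.39%, 1.37 to 3.85) and was found in 0 of 240 enterocyte-marker cells, at similar median depths of 20388 and 19990.5 UMIs. The count of 0 allows a share of up to 1.25% when taken as 3 cells and of up to 1.53% by the Clopper-Pearson interval, which overlaps that of the stem-marker cells. Ltc4s was found in 34 of the 669 stem-marker cells (5.08%, 3.54 to 7.03) and in 9 of the 240 enterocyte-marker cells (3.75%, 1.73 to 7.0), with overlapping intervals. Thinned to 2000 UMIs, Pou2f3 was left in 2 and Ltc4s in 4 of the stem-marker cells, so these levels are near that of 1 UMI and no order is read from them. Dclk1 had no UMI in any control cell outside those with 3 or more tuft genes.

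The label was set beside 61 further genes known from tuft cells, in 6 lists that did not serve to choose the cells. The lists were also chosen with earlier results of these data known, so they are not independent support for the label. Of the 61 genes, 52 were listed in the control file and 58 in the Taf4 IEC file. In the chosen cells with at least 2000 UMIs, 10 or more UMIs were held by 17 control genes and 33 Taf4 IEC genes. Of those, 12 control genes (70.6%) and 28 Taf4 IEC genes (84.8%) were at least 4-fold higher than in the remaining cells, where 2.38% of 2223 and 4.26% of 2885 genes with as many UMIs were. This filter let a gene in through the chosen cells themselves, so these counts, and those by list below, do not stand for the whole lists. Over all 52 control genes listed, 41 were at a higher level in the chosen cells, 1 at a lower level and 10 had no UMI there, and over the 58 Taf4 IEC genes these numbers were 50, 2 and 6. In the control 42 had a UMI in the chosen cells, so nearly every gene detected there counted as higher. Nrep did so with 1 UMI against 101 in the rest. The same count was not made over all genes, so these numbers do not set the lists apart from other genes. Among genes with at least 20 UMIs in all the cells, a filter chosen after the values were seen, 16 of 31 and 29 of 39 were at least 4-fold higher, where 3.96% of 12247 and 4.01% of 12002 genes were.

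In the taste-like pathway, 1 of 1 control genes and 3 of 4 Taf4 IEC genes with 10 or more UMIs were 4-fold higher. Itpr2, an inositol trisphosphate receptor, was 8.86-fold higher (4.20 to 16.6) in the control cells and 44.1-fold higher (30.2 to 63.5) in the Taf4 IEC cells. Gng13, a G protein gamma subunit of taste cells, had 14 UMIs in the Taf4 IEC cells against 7 in all the rest, and Plcg2, a phospholipase C, 15 against 14. Itpr3, the receptor of taste cells, was at 1.68-fold and 1.82-fold and had 1166 and 834 UMIs in the rest. The taste G protein alpha subunit Gnat3 was listed in neither file, and the succinate receptor Sucnr1 had 0 UMIs in the chosen cells of both.

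Of the enzymes of eicosanoid synthesis, 1 of 1 and 2 of 2 genes were 4-fold higher. Hpgds, a prostaglandin D synthase whose promoter is shown above, was 32.8-fold higher (21.8 to 47.7) in the chosen control cells and 31.5-fold higher (20.9 to 46.3) in those of Taf4 IEC, with UMIs in 8 of 9 and 7 of 8 of them. Alox5ap, the activator of 5-lipoxygenase, had 16 UMIs in 2 of the 8 Taf4 IEC cells and 1 in all the rest. In the control it had 1 UMI in the chosen cells and 6 in the rest.

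Of the transcription factors, 2 of 3 control genes and 5 of 6 Taf4 IEC genes were 4-fold higher. Hmx3, a homeobox factor, had 23 UMIs in 6 of the 8 Taf4 IEC cells and 0 in the rest. This was 894-fold higher with the 0 counted as 3, and the exact interval began at 670. In the control, Hmx3 had 7 UMIs in the chosen cells and 0 in the rest. Its relative Hmx2 had 20 UMIs against 1 in the Taf4 IEC library and 8 against 4 in the control, and Spib, an ETS factor, 14 against 0 in the Taf4 IEC library. Sox4, which many other cells expressed, was 6.39-fold and 8.11-fold higher, and Runx1 4.21-fold and 9.26-fold. Sox9, a factor of the crypt base, was 2.34-fold and 3.18-fold higher and did not reach 4-fold. Atoh1, the factor of the secretory lineage, had 2 UMIs in the chosen control cells and 0 in those of Taf4 IEC.

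In the immune signalling list, 1 of 1 control genes and 8 of 8 Taf4 IEC genes were 4-fold higher. Il13ra1, a chain of the interleukin 13 receptor, was 15.5-fold and 24.7-fold higher. Among the 8 Taf4 IEC cells, Vav1, a guanine nucleotide exchange factor, had 22 UMIs against 0 in the rest. Pik3r5, a regulatory subunit of phosphoinositide 3-kinase, had 26 UMIs against 4, the kinase gene Bmx 18 against 4, and Sh2d7, a relative of Sh2d6, 13 against 0. The epithelial cytokine Il25 had 1 UMI in the Taf4 IEC cells and was not listed in the control file, and the kinase gene Lyn had 0 UMIs in the chosen cells of both libraries. Ptprc, which encodes CD45, was listed in neither file.

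Of the cytoskeletal and surface genes, 3 of 6 and 4 of 6 were 4-fold higher, among them Espn, which encodes the actin bundler espin, at 5.10-fold and 7.29-fold, and the tubulin gene Tuba1a at 5.84-fold and 8.83-fold. Vil1, which encodes villin and whose promoter drives the Cre, was at 0.786-fold and 0.944-fold, with UMIs in 7 of 9 and 8 of 8 cells. The other markers gave 4 of 5 and 6 of 7. Chat, which encodes choline acetyltransferase, had 5 UMIs in 4 of the 8 Taf4 IEC cells and 0 in the control cells, and Siglecf had 6 UMIs in 2 of them.

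The genes most like the 8 were sought among all genes with 10 or more UMIs in the chosen cells, ranked in each library by the ratio of their level there to that in the remaining cells. Of the 2223 control genes and 2885 Taf4 IEC genes ranked, 11 were among the first 30 of both. They were 1810046K07Rik, Pygl, Rgs2, Fyb, Agt, Ahnak2, Tanc2, Serpini1, Inpp5b, Itpr2 and Kctd12, of which 4 (Rgs2, Fyb, Itpr2 and Kctd12) stood in the lists above and 7 in none. The ratio was the measure that chose them and is given as a description.

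1810046K07Rik, whose promoter held the octamer at 2 places, had 15 UMIs in 5 of the 9 control cells and 6 UMIs in the 2110 others, and 23 UMIs in 5 of the 8 Taf4 IEC cells and 5 UMIs in the 913 others. Its ratios were 545 (200 to 1715) and 536 (199 to 1806). Pygl, the liver form of glycogen phosphorylase, was at 200 and 75, and Agt, which encodes angiotensinogen, at 57.5 and 144. Rgs2, a further regulator of G protein signalling, was at 86.4 (58.9 to 125) and 383 (274 to 545), with UMIs in 7 of the cells of each library.

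Fyb, which encodes an adaptor protein of immune cells, was at 57.9 and 179 but had its 17 control UMIs in 2 of the 9 cells. Inpp5b, an inositol polyphosphate phosphatase, was at 13.3 and 33.2 and was found in 7 of 9 and 8 of 8 cells. Serpini1, which encodes neuroserpin, was at 16.5 and 48.3, and Ahnak2 and the scaffold gene Tanc2 lay between 26.9 and 42.8 in both libraries. Of the 12 promoter windows of these 11 genes, 2 held the octamer, those of 1810046K07Rik and Kctd12.

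The chosen cells of both libraries were then compared through the wider lists, which did not choose them. Of 28 genes with at least 20 UMIs over the 17 cells, 18 were at least 2-fold higher in the Taf4 IEC cells and 0 were at least 2-fold lower, with a median log2 ratio of 1.42. Over all 2468 such genes, 12.2% were 2-fold or more higher and 4.38% lower, with a median of 0.16. In cells with 4 or more of the 8 genes, 16 of 26 were 2-fold higher, where 12.0% of 2247 genes were. The Taf4 IEC cells held more of these wider genes that passed the filter, in 8 against 9 cells of 1 library each. The filter on summed UMIs let some genes in mainly through the Taf4 IEC cells, such as Matk with 1 control and 20 Taf4 IEC UMIs. The chosen cells were also unlike, with 3 to 7 of the 8 tuft genes in control and 6 to 8 in Taf4 IEC cells. These counts are therefore a description. Levels in the remaining cells also differed between the libraries for some of these genes and were not taken into account in the counts.

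Kctd12 had 24 UMIs in the 9 control cells and 293 in the 8 Taf4 IEC cells (log2 ratio 3.42, 2.81 to 4.08), and its level in the remaining cells was also higher in the Taf4 IEC library, 0.414 per 10000 against 0.151. Nrep had 1 and 41 UMIs (5.16, 2.61 to 10.50) and the kinase gene Matk 1 and 20 (4.13, 1.48 to 9.50). Tuba1a had 21 and 100 (2.06, 1.37 to 2.81), and was also higher in the remaining Taf4 IEC cells, 0.550 per 10000 against 0.200. Rgs2, with 42 and 151 UMIs in the chosen cells, was lower in the remaining Taf4 IEC cells, 0.0192 against 0.0270. In the chosen cells, others were close to equal, with 32 and 34 UMIs of Hpgds (-0.11, -0.85 to 0.64) and 430 and 420 of Sox4 (-0.23, -0.42 to -0.03). Of the 8 tuft genes themselves, used to choose the cells, 7 had enough UMIs and 5 of them were 2-fold or more higher, with a median log2 ratio of 1.60.

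**Figure D4:**
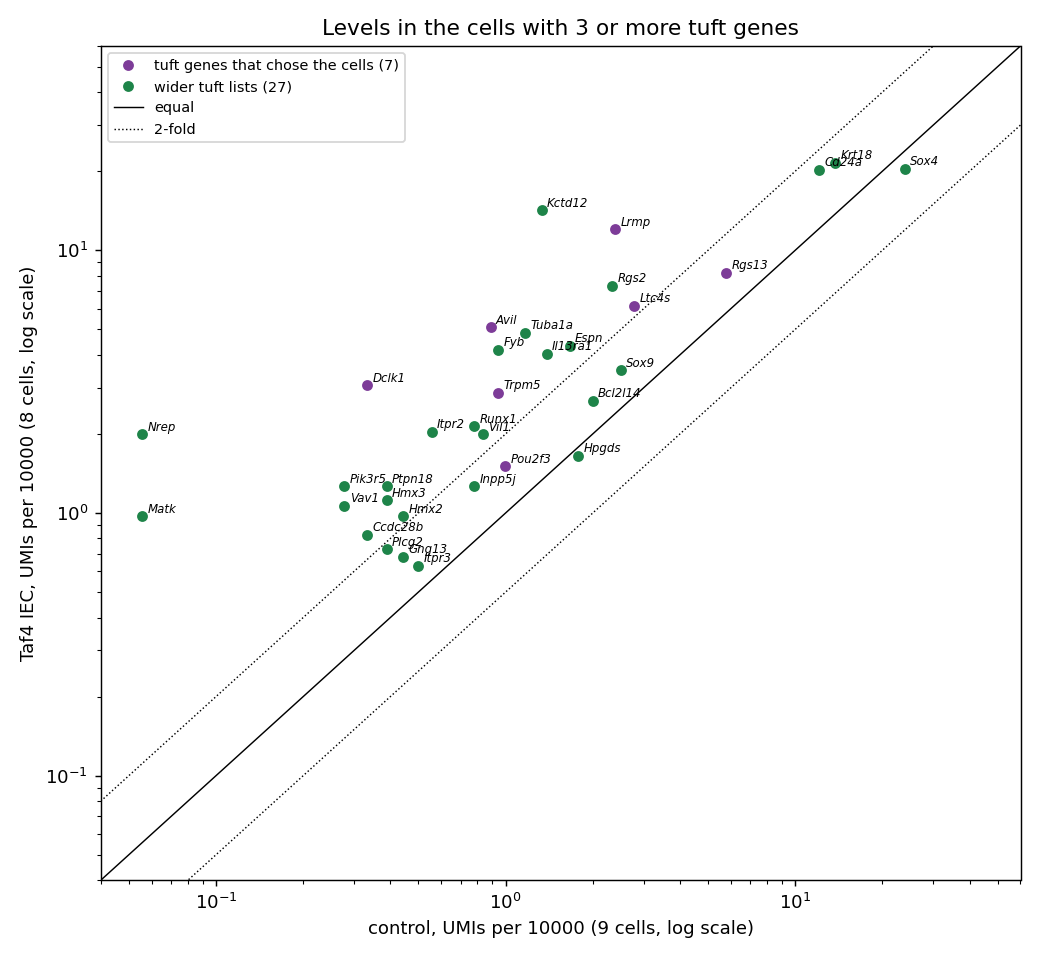
Level in UMIs per 10000 of 27 wider tuft cell genes (green) and 7 of the 8 tuft genes that chose the cells (purple), in the 9 control cells on the horizontal and the 8 Taf4 IEC cells on the vertical axis, both on a log scale. Of the green points, 17 lay on or above the upper dotted line of a 2-fold difference and 0 below the lower one.

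By summed level, markers of enterocytes, Paneth, goblet and enteroendocrine cells were low in most of the chosen cells against the mean of the remaining cells. That mean includes the cells with these markers. Markers of stem cells were not low in the control. By detection, 4 of the 9 control cells held 3 or more Paneth genes and 4 held 3 or more goblet genes. Of the 8 Taf4 IEC cells, 1 and 5 did so. In all, 3 cells held 100 or more UMIs of another list. The control cell of 15116 UMIs with 4 tuft genes held 1275 UMIs of the Paneth list and 412 of the goblet list, the control cell of 20312 UMIs held 153 of the goblet list, and the Taf4 IEC cell of 37070 UMIs held 1247 of the goblet list. Without these 3 cells there were 7 in each library, and 17 of 27 wider genes were 2-fold or more higher in the Taf4 IEC cells, where 15.3% of 2038 genes were. No doublet caller was run, and whether these were doublets was not tested.

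In all the chosen cells, the enterocyte list was at 0.888 per 10000 UMIs against 14.6 in the remaining control cells, and at 2.77 against 37.4 in the Taf4 IEC library. The enteroendocrine list was at 0.0555 against 9.36 and at 0.291 against 29.6, with 1 and 6 UMIs in all. The goblet list was at 35.0 against 43.4 for the control and 64.4 against 140 for Taf4 IEC, and at 4.49 and 4.74 without the 3 cells. The Paneth list was at 74.9 against 20.1 in the control, at 4.91 without the 3 cells, and at 2.82 against 75.2 in the Taf4 IEC library. The chosen cells held 0 UMIs of the immune and of the stromal list, of which 2 of 8 and 3 of 6 genes were listed in the control file and 4 of 8 and 2 of 6 in the Taf4 IEC file.

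The stem cell list (Lgr5, Olfm4, Ascl2, Axin2, Smoc2, Rgmb, Aqp4 and Slc12a2) was detected in the chosen cells of both libraries. It was at 13.3 per 10000 UMIs against 15.7 in the rest of the control, a ratio of 0.850 (0.746 to 0.965), and at 4.76 against 9.61 in the Taf4 IEC library, a ratio of 0.495 (0.402 to 0.604). All 9 control and 6 of the 8 Taf4 IEC cells had UMIs of 3 or more of its genes, and the control cells ran from 4.92 to 23.8 per 10000. The genes of the list went different ways. Ascl2, a transcription factor of stem cells, was 4.15-fold higher (2.91 to 5.73) in the chosen control cells and 8.77-fold higher (5.47 to 13.4) in those of Taf4 IEC, and Smoc2, which encodes a secreted matrix protein, was 1.74-fold (1.27 to 2.34) and 1.49-fold (1.06 to 2.03) higher. Lgr5, the receptor that marks the stem cells, was at 0.276-fold (0.119 to 0.545) with 8 control UMIs and had 0 UMIs in the 8 Taf4 IEC cells, and Olfm4 was at 0.672-fold and 0.0353-fold. A list of 8 targets of p53 (Cdkn1a, Ccng1, Mdm2, Phlda3, Trp53inp1, Eda2r, Sesn2 and Bax) was at 5.66 against 5.00 in the control, a ratio of 1.13 whose interval held 1 (0.923 to 1.37). In the Taf4 IEC library it was at 7.09 against 14.1, a ratio of 0.503 (0.425 to 0.592). The 8 cells ran from 3.24 to 14.6 with a median of 4.28, so at least 1 of them lay above the mean of the remaining cells. Taf4 itself had 2 UMIs in the chosen cells of each library, too few to compare.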

How the data were processed

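A 10x library of control enteroids and another of Taf4 IEC enteroids were measured by single-cell RNA-seq. The authors deposited whole-number UMI counts of genes by cells that were not normalized. The labels name bcl2fastq 2.17.1.14, Cell Ranger 3.1 and Seurat 3.1.4 and the build mm10. The study kept cells by genes detected and by mitochondrial share, and the deposited cells hold 269 to 5997 genes and at most 15.0% mitochondrial UMIs.

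Levels were summed over cells per 10000 UMIs, in Python 3.11.15 (pandas 2.3.3, numpy 2.4.6), with intervals from scipy 1.17.1. The scripts were tested on simulated data. Cells were thinned by drawing UMIs without replacement with a fixed seed. A level of 0 was replaced by 3 UMIs only where a ratio is given with 0 counted as 3, in the counts of genes by fold, or in the ranking. Genes needed 20 UMIs for comparisons between libraries and 10 UMIs in the chosen cells for those within a library. No test was made, since each condition had 1 library. No clustering was used and no doublet caller was run.

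The text names the 8 genes, Taf4, genes of the wider tuft lists and the genes among the first 30 of both rankings. Wider genes under 4-fold or with fewer than 10 UMIs, and single cells, were named after their values were seen. An item of the wider lists is counted but not reported here by itself. The members and lists were chosen with earlier results of these data known, so their pattern is a description and not independent support. All 8 symbols matched RefSeq genes of GRCm38.p6, which gave coordinates and promoters.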

Additional observations from a re-analysis of the deposited data

How the results depend on the processing

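Of 115 values recomputed under alternative settings, 107 stayed within the counting interval or, for counts and median percents, within 1.5 times the main value, 8 moved further, and none changed direction. The summed log2 ratio of 1.82 was 1.64 with mitochondrial, ribosomal protein, Gm42418 and AY036118 UMIs taken out of the totals, outside its interval. It was 1.72 without the cell with the most tuft gene UMIs in each library and 1.72 without the cells with 100 or more UMIs of another list, both alternatives chosen after seeing the data, and 1.91 without the 2% of deepest cells. Among single genes, thinning each cell to 2000 UMIs gave log2 ratios of 0.20 for Sh2d6, 0.27 for Ltc4s, 2.13 for Rgs13 and 2.47 for Lrmp. Giving each cell equal weight gave 2.22 for Avil, 2.17 for Rgs13 and 2.61 for Lrmp. The cause was not tested. Co-detection and the wider lists were recomputed with 2 or 4 genes choosing the cells, from 5000 UMIs and without the deepest cells, and the median percent of cells with each gene among cells with the others ran from 50 to 77.4 around 69.0 in the control and from 66.7 to 100 around 100 in the Taf4 IEC library, lowest with 2 genes. Under these settings the number of wider genes 4-fold higher ran from 11 to 12 in the control and from 26 to 28 in the Taf4 IEC library. No paired analysis was possible because each condition had 1 library. Leaving out a replicate was not possible for the same reason. The 9 and 8 cells of single cultures limit every comparison between conditions, and with 3 control UMIs of Sh2d6 and 6 of Dclk1, their ratios are known only to the width of their intervals.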
